A study of Mus musculus with 319 samples.

Results

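Tuft cells carry a tall tuft of microvilli on their apical side, and 8 genes of its cytoskeleton were followed here across single thymic tuft cells of the mouse. The genes were taken from a given list, which was chosen with earlier results of these data known. Avil, Vil1, Espn and Pls1 encode proteins that bundle actin filaments. Eps8 encodes a capper and bundler of actin, Ezr a linker of actin to the plasma membrane, Dclk1 a microtubule-binding kinase and Tuba1a an α-tubulin. All 8 were found once each among the 48795 gene entries of the count tables. Each sample was 1 well of a plate into which 1 cell had been sorted from pooled, enzymatically digested thymi, and its polyadenylated RNA was turned into a library by Smart-seq2, which reads transcripts over their whole length and has no molecular identifiers. The wells formed 4 sets: 96 wells labelled Aire-/- (strain C57BL/6.Il25.Aire) and 92 wild-type (WT) wells, both of batch 2, and 95 and 31 WT wells of 2 earlier sorts named June29 and June5 (all WT from strain C57BL/6.Il25). In all groups the mice were Flare25/Flare25, a reporter of Il25, the epithelial cytokine that tuft cells make, and were naive, of mixed sex and 6 weeks old, except for 1 Aire-/- well labelled 5 weeks. The sort took EPCAM+ Flare25+ MHCIIlo cells that were UVBlue-, CD45- and CD11c-, that is, epithelial cells in which the reporter was on.

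In the microvilli of tuft cells, bundled actin filaments run deep into the cell body and microtubules run beside them. Villin and advillin belong to the gelsolin family, espin and the plastin encoded by Pls1 pack filaments into tight parallel bundles, Eps8 acts at the filament tips, and ezrin ties the sides of the core bundle to the membrane. In the intestine, Vil1, Pls1, Ezr and Eps8 are also genes of the brush border of enterocytes, whereas Avil and Dclk1 are widely used there to mark tuft cells.

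Of 314 single-cell wells, 301 were kept (96 labelled Aire-/-, 89 WT batch 2, 87 WT June29 and 29 WT June5), with a median of 638298, 566923, 1150167 and 539655 gene reads per cell in that order of sets. At least 2 of 15 tuft markers were found in 95 of the 96 cells labelled Aire-/- and in every kept WT cell, and their summed level in a set lay between 15202 and 21303 CPM (CPM scales the reads of a gene by the gene reads of its set). Of the other lists, enterocyte or hepatocyte markers summed to between 3.90 and 55.8 CPM, and cortical epithelial (cTEC) markers to between 138.9 and 533 CPM with Psmb11 at 0 in every set. Microfold-like markers summed to between 1209 and 2319 CPM, with at least 2 of them in 20.8% to 44.8% of cells. Their highest cell in WT June5 had 78904 CPM and the median cell 909 CPM. Single cells were also high in lists not given in full here: 16436 CPM of medullary epithelial (mTEC low) markers in WT June29 and 12135 CPM of corneocyte-like markers in WT batch 2. Aire itself stood at 152.7 CPM in the set labelled Aire-/- and at 18.9, 11.2 and 7.84 CPM in WT batch 2, WT June29 and WT June5. A single cell held 43.4% of the Aire reads of the set labelled Aire-/-. Without the top cell of each set, a setting chosen after its values were seen, Aire stood at 88.8 CPM in the set labelled Aire-/- and at 12.2, 7.70 and 4.45 CPM in the 3 WT sets. The level of Aire per gene therefore ran against a loss of its transcript, and a count per gene does not show which exons the reads came from. Each set is 1 sample, since no animal is named and the thymi were pooled, so no difference below was tested. Intervals come from read or cell counts, and without molecular identifiers they cover counting error only.

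The 8 genes fell into 4 that most cells of every set carried and 4 that were scarcer, of which Vil1, Pls1 and Eps8 were missing from most cells of every set. To set genes side by side, levels were divided by exon length and scaled so that every set has the same total over all genes, in the unit TPM. As a mean of the 4 sets, Avil reached 2584 TPM and Tuba1a 1783 TPM, followed by Dclk1 at 169.1, Espn at 141.4 and Ezr at 116.3 TPM. Vil1 reached 46.9, Pls1 29.2 and Eps8 1.91 TPM. Avil was the highest of the 8 in every set, and Vil1, Pls1 and Eps8 were the lowest in every set. The length of Dclk1 joins the exons of 15 annotated transcripts, which lowers its value per length.

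**Figure D1:**
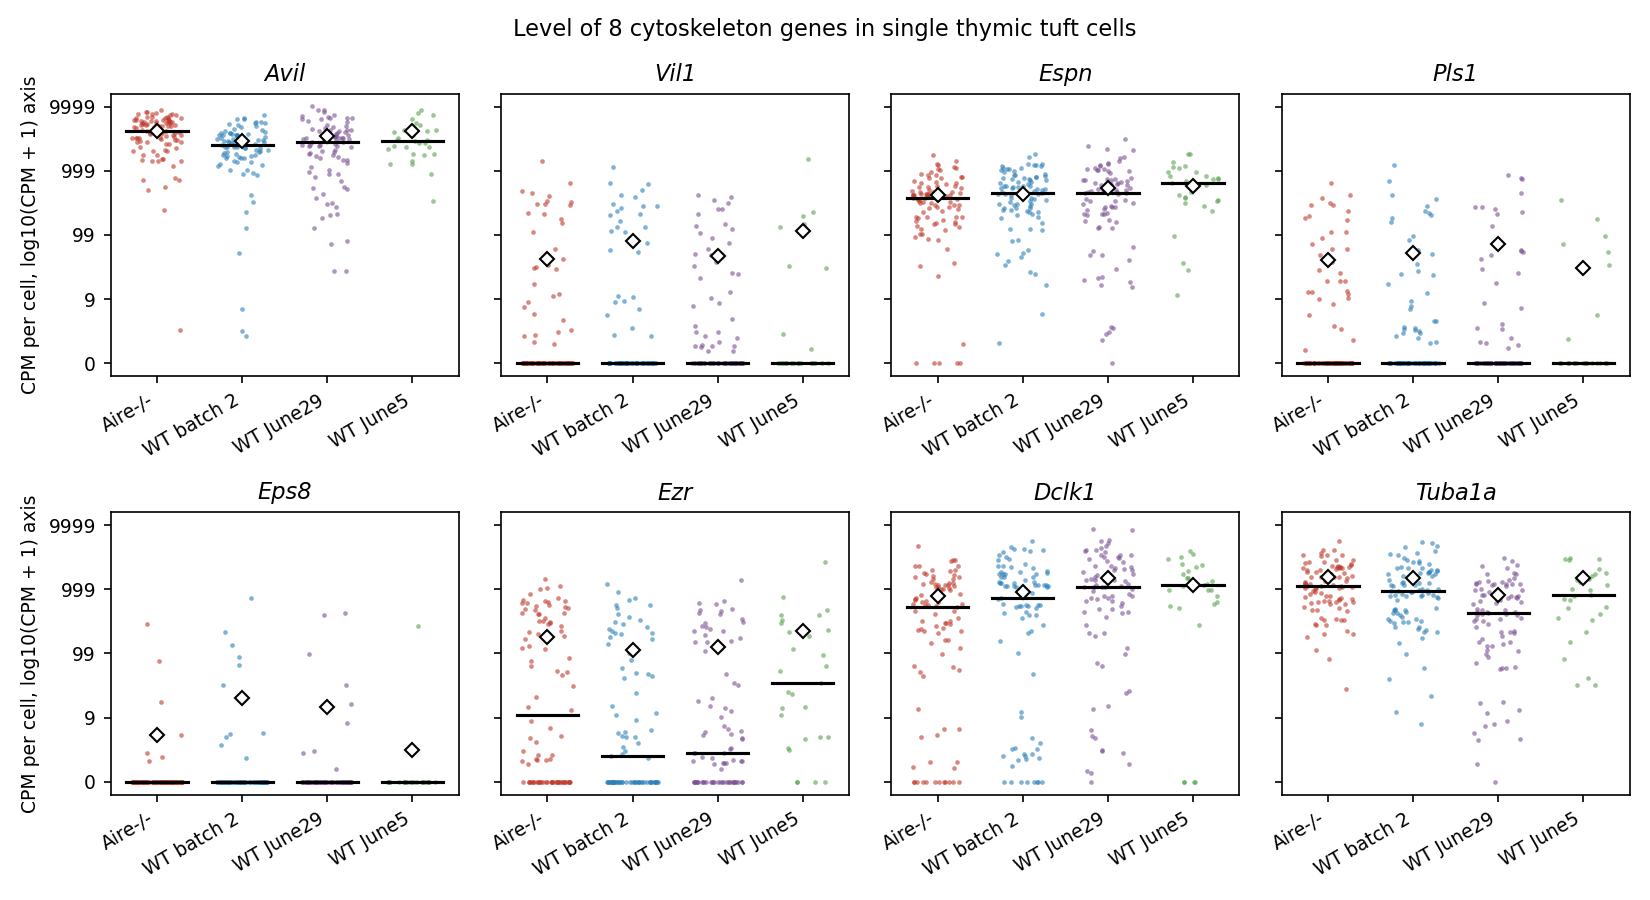
CPM of the 8 genes in each kept cell of the 4 sets, on a log10(CPM + 1) axis; each dot is 1 cell, the bar is the median cell and the diamond is the CPM of the summed reads of the set. Avil and Tuba1a fill the upper part of their panels, whereas the median cell is at 0 for Vil1, Pls1 and Eps8 in every set.

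A cell was taken to carry a gene with at least 5 reads. Avil was carried by 98.96% of the cells labelled Aire-/- and by 97.8%, 100% and 100% of the cells of WT batch 2, WT June29 and WT June5. Tuba1a was carried by 100%, 97.8%, 93.1% and 100%, Espn by 92.7%, 97.8%, 91.95% and 96.6%, and Dclk1 by 78.1%, 76.4%, 90.8% and 86.2%, in the same order of sets. These 4 were found together in 70 of 96 cells labelled Aire-/-, 66 of 89 of WT batch 2, 68 of 87 of WT June29 and 24 of 29 of WT June5. The other 4 were scattered over the cells. Ezr was carried by 51.04%, 35.96%, 39.1% and 62.1% of cells, Vil1 by 25%, 24.7%, 28.7% and 20.7%, Pls1 by 28.1%, 22.5%, 21.8% and 20.7%, and Eps8 by 3.13%, 7.87%, 6.90% and 3.45%. The 95% Clopper-Pearson intervals of these shares cover counting error only. For Ezr they ran from 40.6% to 61.4% in the set labelled Aire-/-, from 26.1% to 46.8% in WT batch 2, from 28.8% to 50.1% in WT June29 and from 42.3% to 79.3% in WT June5. For Dclk1 they ran from 68.5% to 85.9%, from 66.2% to 84.8%, from 82.7% to 95.95% and from 68.3% to 96.1% in the same order. The intervals of every pair of sets overlap for both genes, which does not show that the sets are alike. For Ezr, those of WT batch 2 and WT June5 overlap only between 42.3% and 46.8%, around shares of 35.96% and 62.1%.

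**Figure D2:**
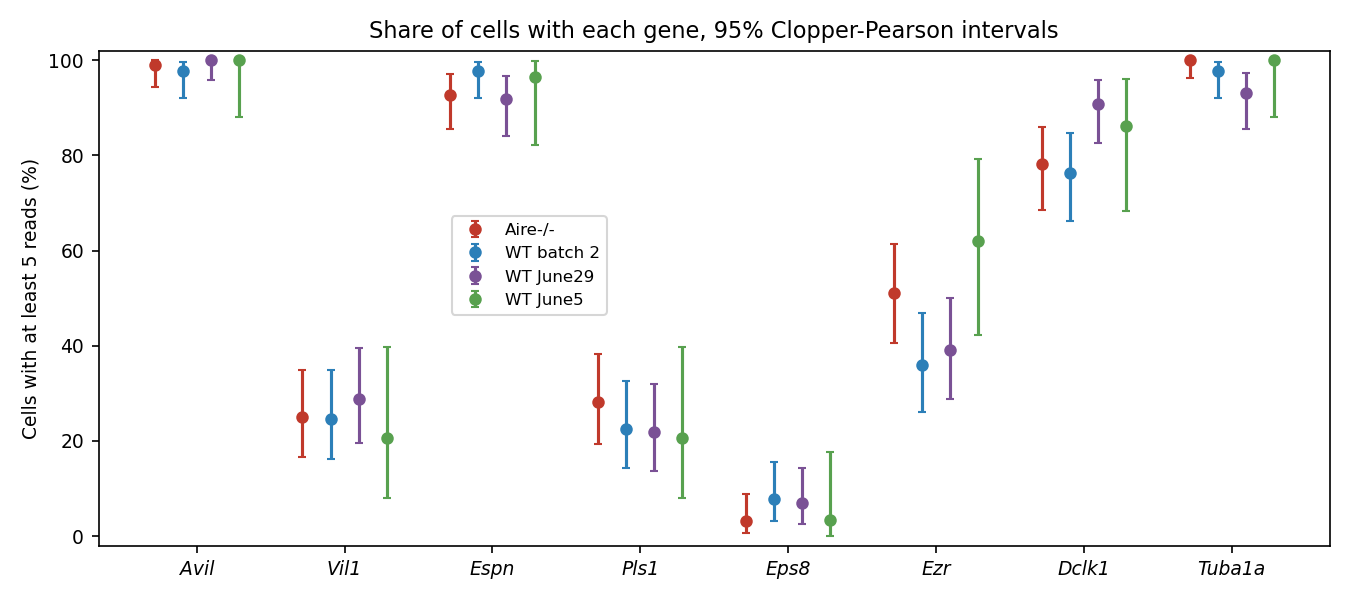
Percent of kept cells with at least 5 reads of each gene in the 4 sets, with 95% Clopper-Pearson intervals. Avil, Espn and Tuba1a lie above 90% in every set and Vil1, Pls1 and Eps8 below 30%, with Ezr between 35.96% and 62.1%.

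The median cell carried 5 of the 8 genes in each set, and no kept cell carried fewer than 2. All 8 were found together in 2 cells of WT batch 2 and 1 cell of WT June29. The most frequent combination, in 67 of the 301 cells, was Avil, Dclk1, Espn and Tuba1a alone. The same 4 with Ezr came next with 54 cells, and with Vil1 in 27 cells. None of the 4 scarcer genes was carried by 25 of 96 cells labelled Aire-/-, 31 of 89 of WT batch 2, 31 of 87 of WT June29 and 8 of 29 of WT June5. Villin, the classic marker of the intestinal brush border, was thus read in a minority of thymic tuft cells, while its relative advillin was read in nearly all of them. Where these genes were found they were not always low: the highest cell had 1393 CPM of Vil1 in the set labelled Aire-/- and 1153, 413 and 1518 CPM in WT batch 2, WT June29 and WT June5.

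For the comparison of genotypes, only batch 2 holds both. Its wells are divided by the Batch entry of the authors' deposited list of wells, and these groups are called plate 1 and plate 2 here. Both groups carry cells of each genotype label. A gene was called when 3 things held: its level in one of the sets was 20 CPM or more, its log2 fold after adding 1 CPM to both levels was 1 or more in size, and the shares of cells that carried it differed by 15 points or more with the same sign. None of the 7 members at 20 CPM or more was called between the set labelled Aire-/- and WT batch 2, where 1.02% of the 8267 genes tested were called higher and 0.399% lower. The median log2 fold of the 7 was -0.10, beside -0.03 over all genes tested. Eps8 lay under the level needed.

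Avil encodes advillin, an actin-binding protein of the gelsolin family (chr10:127000709-127020994, plus strand, GRCm38). It stood at 4126 CPM in the set labelled Aire-/- and at 2893, 3432 and 4222 CPM in WT batch 2, WT June29 and WT June5. By summed reads, the set labelled Aire-/- thus lay above its batch partner but within the range of the WT sets. The level of WT June5 leaned on a single cell. Without that cell the log2 fold of WT June29 over WT June5 was -0.12 in place of -0.30. By the mean over cells, the set labelled Aire-/- lay above every WT set. It had 4244 CPM, against 2746, 3050 and 3419 CPM in WT batch 2, WT June29 and WT June5. Its median cell, given below, was also above that of every WT set. The 95% Poisson intervals, for counting error only, were 4111 to 4141 CPM in the set labelled Aire-/- and 2879 to 2907 CPM in WT batch 2. The log2 fold against WT batch 2 was 0.51, with 0.46 on plate 1 and 0.59 on plate 2. The shift was seen in the middle of the cells: the lower quartile cell labelled Aire-/- had 2751 CPM, against a median cell of 2543 CPM in WT batch 2. Between cells, Avil ran from 2.36 through a median of 4149 to 8976 CPM in the set labelled Aire-/-, and from 1.62 through 2543 to 7331 CPM in WT batch 2. It ran from 26.4 through 2778 to 10054 CPM in WT June29, and from 332 through 2902 to 8932 CPM in WT June5. The 4 ranges overlap over most of their length, and the coefficient of variation over cells was 0.51, 0.60, 0.77 and 0.63, the lowest of the 8 genes in every set. Within the gelsolin family, Avil was the main member in these cells at a mean of 2584 TPM. Capg, a capping protein of that family, had 431 TPM and Gsn, gelsolin itself, 208 TPM. Tsfm on the opposite strand covers 4.86% of the exon bases of Avil and stood at between 20.9 and 31.9 CPM.

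Espn encodes espin, the bundler of parallel actin bundles, known from hair cells of the ear (chr4:152120331-152152371, minus strand). Its level was 412 CPM in the set labelled Aire-/- and 440, 535 and 576 CPM in WT batch 2, WT June29 and WT June5. The log2 folds of the 4 comparisons lay between -0.39 and -0.10, and that of the set labelled Aire-/- against WT batch 2 was -0.10, with -0.08 on plate 1 and -0.03 on plate 2. The median cell had 371, 444, 456 and 632 CPM in the same order, so the median cells kept the order of the summed levels. None of its 50-base words occurs in another annotated gene.

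Vil1 (villin, chr1:74409376-74435559, plus strand) rested on few cells. It stood at 41.4 CPM in the set labelled Aire-/- and at 78.8, 45.4 and 113.1 CPM in WT batch 2, WT June29 and WT June5. In WT June5, 1 cell held 80.6% of all Vil1 reads. Without that cell the WT June5 level was 23.4 CPM, and the log2 fold of WT batch 2 over WT June5 was 1.71 in place of -0.52. The fold of WT June29 over WT June5 likewise became 0.93 in place of -1.30. The fold of the set labelled Aire-/- against WT batch 2 was -0.91, but it was -1.62 on plate 1 and -0.12 on plate 2, while the shares of cells were 25% and 24.7%.

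Pls1, which encodes the plastin of the intestinal brush border (chr9:95752642-95845311, minus strand), had 39.5 CPM in the set labelled Aire-/- and 51.96, 70.2 and 29.2 CPM in WT batch 2, WT June29 and WT June5. The plates of batch 2 went opposite ways. Pls1 had 60.2 CPM in the set labelled Aire-/- and 33.1 CPM in WT on plate 1, a log2 fold of 0.84, and 18.4 CPM against 74.98 CPM on plate 2, a log2 fold of -1.97. Between WT June29 and WT June5 the log2 fold was 1.24, yet the shares of cells were 21.8% and 20.7%, so the gene was not called. In WT June5, 1 cell held 57.2% of its reads.

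Eps8 was the scarcest (chr6:137477245-137654876, minus strand). It had 4.30 CPM in the set labelled Aire-/- and 19.5, 13.6 and 2.08 CPM in WT batch 2, WT June29 and WT June5, carried by 3, 7, 6 and 1 cells. A single cell held 46.3%, 58.997%, 48.3% and 100% of its reads in the same order. Its level under 20 CPM in each set kept it out of the calls. Among its relatives, the EPS8-like gene Eps8l2 was carried by 31.2%, 31.5%, 34.5% and 41.4% of cells, at 33.3, 34.9, 46.1 and 15.2 CPM, although 26.1% of its 50-base words also occur in a neighbouring gene entry.

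Ezr (ezrin, chr17:6738041-6782784, minus strand) varied most in the share of cells. It had 181.6 CPM in the set labelled Aire-/- and 111.9, 124.5 and 221 CPM in WT batch 2, WT June29 and WT June5. The set labelled Aire-/- and WT June5 were the higher pair, both in level and in share. Against WT batch 2 the set labelled Aire-/- had a log2 fold of 0.69 and a gap of 15.1 points in share, so the fold missed the threshold. On plate 2 alone the fold was 1.12 with a gap of 18.3 points, past the rule, and on plate 1 it was 0.32 with a gap of 12.5 points. The 2 comparisons with WT June5 gave larger differences than that of the genotypes: WT batch 2 against WT June5 gave a log2 fold of -0.97 with a gap of -26.1 points, and WT June29 against WT June5 gave -0.82 with a gap of -23.0 points. Cells with at least 2 haematopoietic markers made up 6 of 96 in the set labelled Aire-/-, 7 of 89 in WT batch 2, 21 of 87 in WT June29 and 10 of 29 in WT June5. In the same order, the 5 B cell markers summed to 229.8, 219.8, 131.1 and 190.8 CPM, the 7 thymocyte markers to 6.64, 102.6, 32.4 and 58.8 CPM, and the 6 dendritic cell or macrophage markers to 116.6, 54.4, 122.6 and 0.16 CPM. Without these cells Ezr was at 114.4 CPM in WT batch 2, 140.98 in WT June29 and 119.9 in WT June5, and the folds became -0.07 and 0.23. The gaps in share without them were -16.0 and -16.3 points. The fold between genotypes was 0.73 without these cells. Moesin, encoded by Msn and the relative that also links actin to the membrane, had 230 CPM in the set labelled Aire-/- and 146.8, 184.5 and 228 CPM in WT batch 2, WT June29 and WT June5, and was likewise lowest in WT batch 2.

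**Figure D3:**
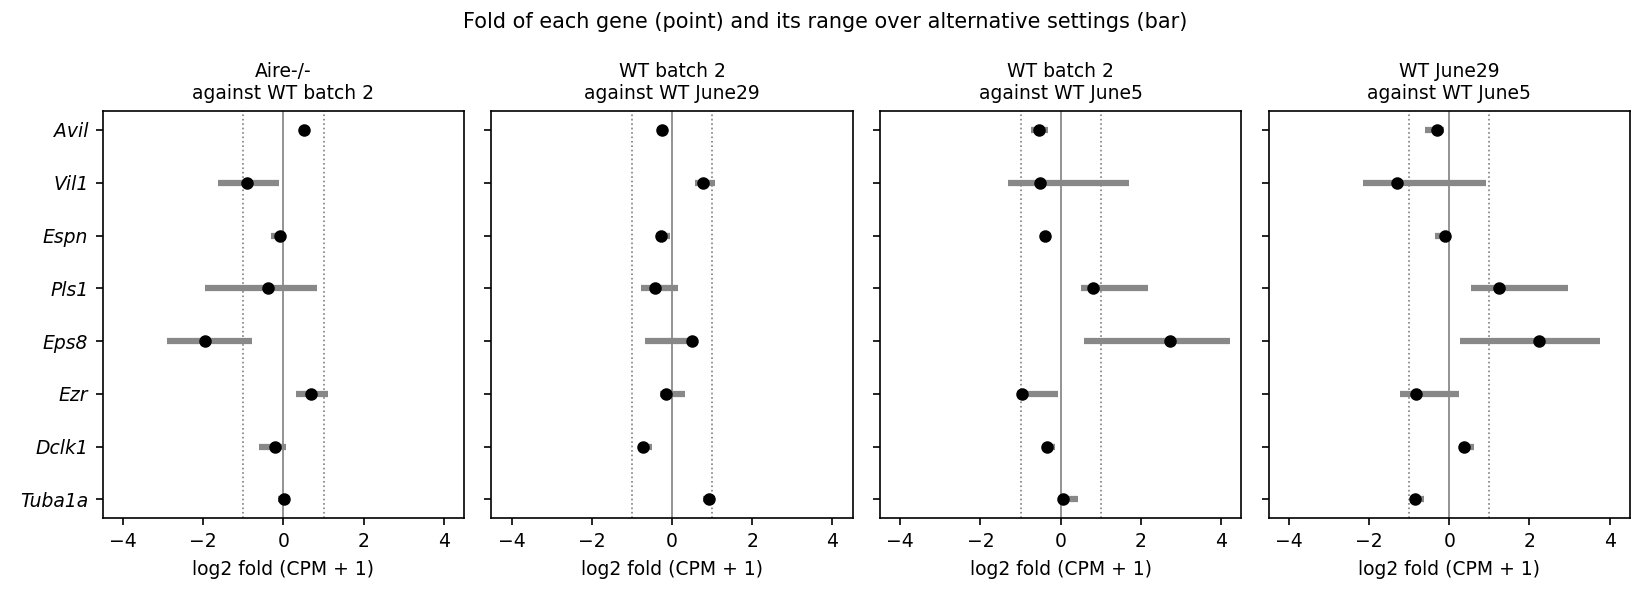
Log2 fold of each gene in the 4 comparisons (point), with 1 CPM added to both levels, and the range over 17 alternative settings in the genotype comparison and 14 in each of the others (bar); dotted lines mark a log2 fold of -1 and 1. The bars of Avil, Espn, Dclk1 and Tuba1a are short, and those of Vil1, Pls1 and Eps8 span more than 1 unit in most comparisons.

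Dclk1 encodes the doublecortin-like kinase whose doublecortin domains bind microtubules (chr3:55242364-55539068, plus strand). It had 792 CPM in the set labelled Aire-/- and 908, 1499 and 1159 CPM in WT batch 2, WT June29 and WT June5. Over cells it ran from 0 through a median of 533 to 4663 CPM in the set labelled Aire-/-, from 0 through 737 to 5568 CPM in WT batch 2, from 0 through 1071 to 8512 CPM in WT June29 and from 0 through 1146 to 3947 CPM in WT June5. Each set therefore held cells with no Dclk1 read, 12, 8, 1 and 4 of them. Of the 21 cells labelled Aire-/- with fewer than 5 Dclk1 reads, all 21 carried Avil. In WT batch 2, WT June29 and WT June5, 19 of 21, 8 of 8 and 4 of 4 such cells did. Of the WT comparisons, WT batch 2 against WT June29 came closest to a call, with a log2 fold of -0.72 and a gap of -14.4 points. Cells labelled Aire-/- and WT batch 2 cells differed by a log2 fold of -0.20, with -0.45 on plate 1 and 0.06 on plate 2.

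Inside the Dclk1 gene lies Gm42609, annotated on the opposite strand (chr3:55377457-55403122). An exon of Gm42609 covers 87 bases of a coding exon of Dclk1 (chr3:55380781-55380867). They are given 5′ to 3′ on the Dclk1 strand, from the GENCODE M21 transcripts, because a read from them matches the annotation of both genes.
Dclk1 exon under Gm42609: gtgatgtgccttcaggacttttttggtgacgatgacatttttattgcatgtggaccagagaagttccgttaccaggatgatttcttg
Every cell with at least 5 reads of Gm42609 also had at least 5 reads of Dclk1: 11 of 11 in the set labelled Aire-/-, 26 of 26 in WT batch 2, 32 of 32 in WT June29 and 8 of 8 in WT June5. Most cells carried Dclk1 in any case, and the Spearman correlation of the 2 genes over cells was 0.37 in the set labelled Aire-/- and 0.44, 0.48 and 0.09 in WT batch 2, WT June29 and WT June5. Gm42609 had 3.97 CPM in the set labelled Aire-/- and 32.5, 59.98 and 32.4 CPM in WT batch 2, WT June29 and WT June5. Per 100 Dclk1 reads this was 0.501, 3.58, 4.00 and 2.79 reads. The set labelled Aire-/- lay below all 3 WT sets on both measures. Gm42609 was 1 of the genes called lower in the set labelled Aire-/- than in WT batch 2, with a log2 fold of -2.75 and shares of 11.5% and 29.2%. On plate 1 it had 4.62 CPM in the set labelled Aire-/- and 40.7 CPM in WT, and on plate 2 it had 3.31 and 22.6 CPM. On plate 1 alone it was not called, since the shares of 14.6% and 29.2% differed by less than 15 points. Gm42609 was singled out after its values were seen. Smart-seq2 does not record the strand of a read, so reads of Gm42609 and reads of unspliced Dclk1 over the same bases cannot be told apart.

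**Figure D4:**
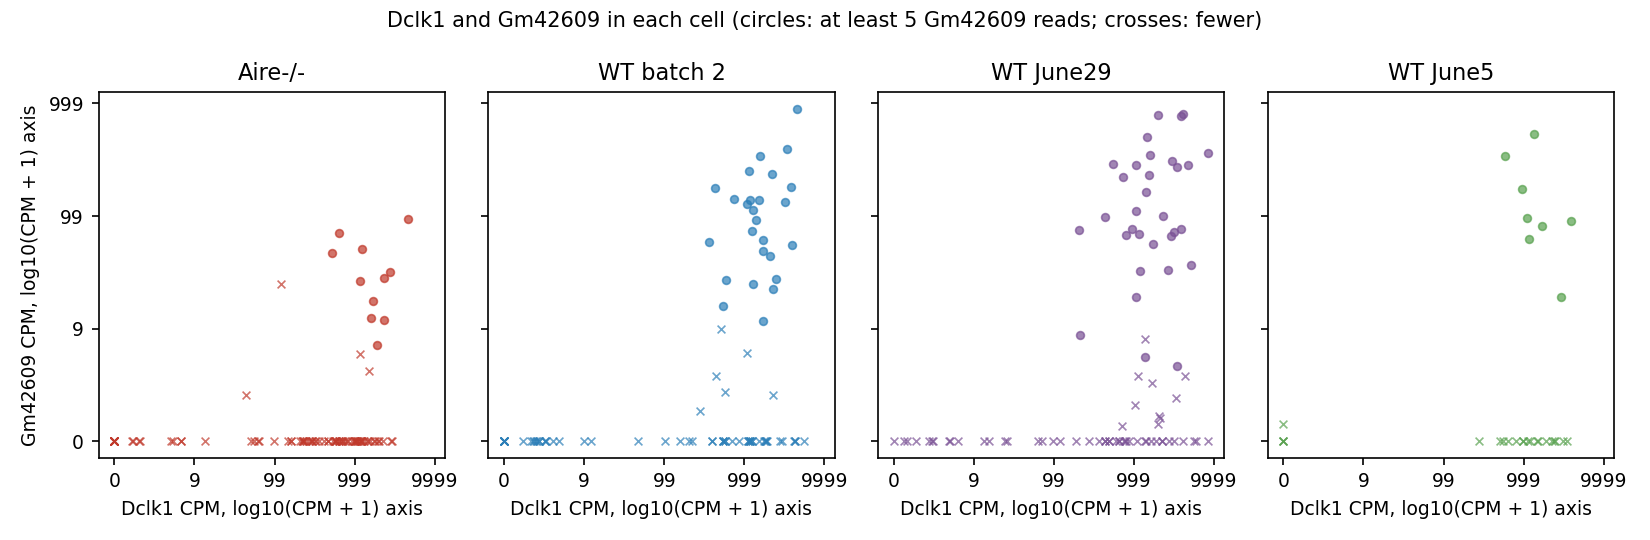
CPM of Gm42609 against CPM of Dclk1 in each kept cell, 1 panel a set, both on log10(CPM + 1) axes; circles are cells with at least 5 Gm42609 reads and crosses cells with fewer. The circles of the set labelled Aire-/- (11 of 96 cells) have a median of 27.3 CPM of Gm42609 and those of WT batch 2, WT June29 and WT June5 medians of 102.65, 97.9 and 92.6 CPM, with ranges that overlap.

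Tuba1a (chr15:98949837-98953703, minus strand) had 1541 CPM in the set labelled Aire-/- and 1520, 808 and 1468 CPM in WT batch 2, WT June29 and WT June5. WT June29 stood apart below the other 3 sets, which lay close together. It also stood apart in the median mitochondrial share of reads per cell, at 9.53% against 3.42% in the set labelled Aire-/-, 4.16% in WT batch 2 and 5.49% in WT June5, and it was the deepest set. Within WT June29 the Spearman correlation of Tuba1a was -0.53 with the mitochondrial share and 0.47 with gene reads. The part of either in its level was not tested. The log2 fold of WT batch 2 over WT June29 was 0.91 and that of WT June29 over WT June5 was -0.86, both short of 1. Between the set labelled Aire-/- and WT batch 2 the fold was 0.02. Over cells Tuba1a ran from 26.7 through a median of 1128 to 5700 CPM in the set labelled Aire-/- and from 6.86 through 945 to 5471 CPM in WT batch 2. In WT June29 it ran from 0 through 429 to 3039 CPM, and in WT June5 from 31.5 through 808 to 3038 CPM. These values carry a limit of sequence: 75.5% of the 50-base words of Tuba1a also occur in other annotated genes, so reads could be split between them. Tuba1b and Tuba1c are other α-tubulin genes.
The counts of such entries varied together from cell to cell. The within-set Spearman correlation with Tuba1a was between 0.89 and 0.94 for the pseudogene entry Gm17383, between 0.75 and 0.87 for Tuba1b and between 0.65 and 0.74 for Tuba1c. Tuba1b had 416 CPM in the set labelled Aire-/- and 517, 214 and 348 CPM in WT batch 2, WT June29 and WT June5, and Tuba1c had 536, 569, 310 and 555 CPM. Both were lowest in WT June29, as Tuba1a was. The part of shared reads in these values was not tested.

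The WT sets were then set against each other as a gauge of the spread between sets of 1 genotype label. No member was called between WT batch 2 and WT June29, where 3.38% of the 8513 genes tested were called higher and 2.68% lower. None was called between WT batch 2 and WT June5 either, where 1.9% of 8561 genes were called higher and 3.97% lower. The same held between WT June29 and WT June5, where 1.81% of 8358 genes were called higher and 3.4% lower. The median log2 fold of the 7 members tested was -0.25, -0.39 and -0.30 in the 3 comparisons, beside 0.16, 0.08 and -0.11 over all genes tested. The comparisons share sets, so their values are not independent of each other. The absolute log2 fold of Avil, Espn, Dclk1 and Tuba1a stayed below 1 in all 4 comparisons.

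Within each set, levels over cells were ranked to see which members went together. Of the 28 pairs, the median of the mean Spearman correlation was 0.08, and only 4 pairs were above 0 in all 4 sets. Cells of a set share a set label but not their depth, which ran from 45266 to 2709942 gene reads in the set labelled Aire-/- alone, and the rank correlations are descriptions without a test. The closest pair was Avil and Tuba1a, with 0.22 in the set labelled Aire-/-, 0.18 in WT batch 2, 0.43 in WT June29 and 0.64 in WT June5. Avil went with Ezr at between 0.14 and 0.19, and with Espn at between 0.02 and 0.17. Dclk1 and Pls1 were the pair below 0 in every set, at -0.17, -0.34, -0.17 and -0.12. Of cells that carried Pls1, 19 of 27 carried Dclk1 in the set labelled Aire-/-, 13 of 20 in WT batch 2, 16 of 19 in WT June29 and 4 of 6 in WT June5. Of cells without Pls1, 56 of 69, 55 of 69, 63 of 68 and 21 of 23 carried Dclk1 in the same order. Of cells that carried Vil1, 23 of 24, 20 of 22, 23 of 25 and 5 of 6 carried Dclk1, against 52 of 72, 48 of 67, 56 of 62 and 20 of 23 of the cells without Vil1. The share of cells with Dclk1 was thus lower among cells with Pls1 in each set and higher among cells with Vil1 in each set but WT June5, differences that were not tested.

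The members also differed in what they followed across cells. Avil followed the summed level of the tuft core genes, with a mean Spearman correlation of 0.50 over the 4 sets, and the keratin sum with 0.44. It ran against the mitochondrial share of reads, at -0.42. Tuba1a behaved in the same way, with 0.45, 0.46 and -0.37, and followed the number of genes detected with 0.38, so depth and RNA content moved with it. Dclk1 followed the tuft core sum less closely, at 0.46, 0.40, 0.21 and 0.18 in the set labelled Aire-/-, WT batch 2, WT June29 and WT June5. It ran against the number of Tas2r genes with a read, which encode bitter taste receptors, at -0.18, -0.31, -0.0026 and -0.62, and its correlation with the gene reads of the cell was 0.05, -0.32, -0.13 and -0.25. With the sum of MHC class II genes, Espn correlated at -0.21, -0.37, -0.15 and -0.10 and Dclk1 at 0.0038, -0.22, -0.41 and -0.22 in the same order of sets, so both were below 0 in the 3 WT sets. Ezr followed the number of genes detected in the WT sets, at 0.44, 0.41 and 0.48 in WT batch 2, WT June29 and WT June5. In the set labelled Aire-/- the value was 0.03, and the mean of the 4 sets was 0.34.

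**Figure D5:**
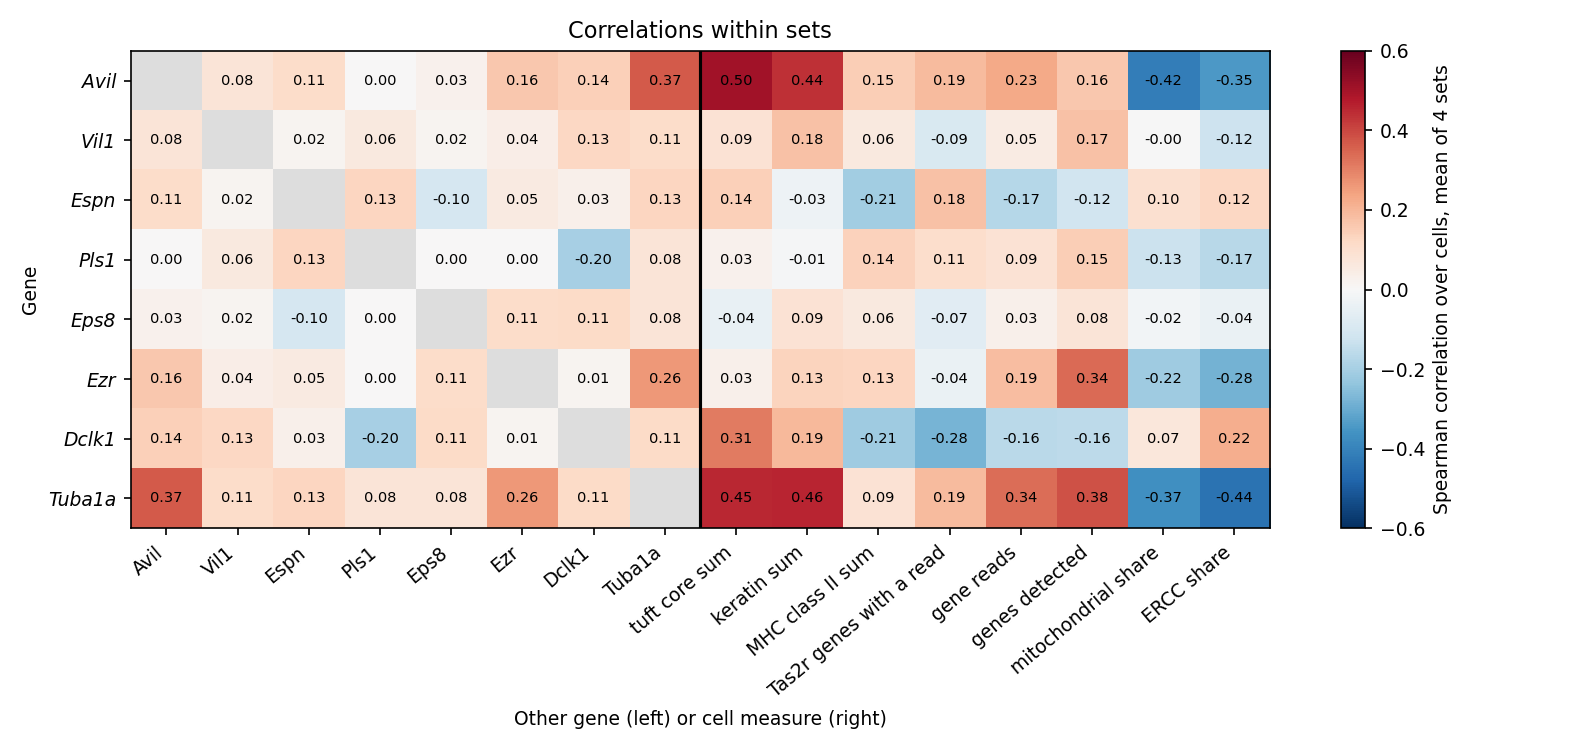
Spearman correlation over the kept cells within a set, as the mean of the 4 sets, between the 8 genes (left of the line) and between each gene and measures of the cell (right of the line). Most pairs of members lie near 0, Avil with Tuba1a is the highest at 0.37 and Dclk1 with Pls1 the lowest at -0.20.

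Among 1074 genes carried by at least 50% of the cells of each set, those most like Dclk1 in level included Adgrg6 and Sh2d6, the first and the second by mean correlation. Adgrg6, an adhesion G protein-coupled receptor gene, correlated with Dclk1 at 0.58 in the set labelled Aire-/- and at 0.56, 0.46 and 0.53 in WT batch 2, WT June29 and WT June5. Sh2d6, an adaptor gene of tuft cells, gave 0.58, 0.61, 0.46 and 0.44 in the same order. Their means were higher than those of the nearest genes of any other member apart from those of Tuba1a, whose nearest entries, Gm17383, Gm15599 and Gm5620, share its sequence. Avil was most like Krt8-ps and Krt8, a pseudogene entry and the keratin gene it copies, at means of 0.46 and 0.45, and then like Alox5, the lipoxygenase gene of leukotriene synthesis, at 0.42. Espn was most like Scand1 at a mean of 0.37, with a spread between 0.15 and 0.54. The nearest genes of Vil1, Ezr, Pls1 and Eps8 had means of 0.29, 0.33, 0.25 and 0.21.

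Other genes of the same structures were read against 9 lists. In the set labelled Aire-/- against WT batch 2, 1 of the 92 listed genes at 20 CPM was called higher and none lower, a share of 1.09% that lies near the 1.02% of all genes called higher. The gene was Pdlim1, a PDZ and LIM domain gene whose product binds α-actinin on actin fibres, at 173.9 CPM in the set labelled Aire-/- and 39.7 CPM in WT batch 2, with shares of 41.7% and 17.98%. The log2 fold was 2.10, and it was 1.45 on plate 1, where the share gap fell short of the rule, and 2.60 on plate 2. WT June29 and WT June5 stood at 23.2 and 40.1 CPM, so all 3 WT sets lay below the set labelled Aire-/-. Of the words of Pdlim1, 9.82% occur in another gene. The intermicrovillar adhesion list, whose cadherins join the tips of neighbouring microvilli, had 5 genes at 20 CPM and no call between genotypes. Its median log2 fold was -0.82, beside -0.03 over all genes tested. That was the lowest median of the 9 lists, and the others lay between -0.44 and 0.18. The median was the value of Calml4, while the cadherins Cdhr2 and Cdhr5 had -0.14 and 0.11. Anks4b had -1.22 and Myo7b -1.59, each carried by at most 14.6% of cells in either set.

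On that adhesion list, 2 of 5 genes at 20 CPM were called higher in WT batch 2 than in WT June29, 1 of 5 higher in WT batch 2 than in WT June5, and 2 of 3 lower in WT June29 than in WT June5, beside 3.38%, 1.9% and 3.4% of all genes. Anks4b and Myo7b reached 20 CPM only in WT batch 2, at 34.5 and 22.5 CPM, and were not called in the comparisons with that set. Ush1c stayed under 20 CPM in every set, so the rule could not call it. Cdhr5, 1 of its 2 cadherins, had 287 CPM in WT batch 2, 104.1 in WT June29 and 362 in WT June5, and was called higher in WT batch 2 than in WT June29 (log2 fold 1.45) and lower in WT June29 than in WT June5 (-1.79). Cdhr2, the other cadherin, had 275, 128.8 and 313 CPM in the same order, and its call was the one between WT June29 and WT June5, at -1.28. Calml4, a light chain of the adhesion complex, had 206 CPM in WT batch 2, 78.6 in WT June29 and 91.2 in WT June5, and was called higher in WT batch 2 than in each of the other two. The set labelled Aire-/- had 310 CPM of Cdhr5, 250 of Cdhr2 and 116.3 of Calml4. WT June29 was the lowest set for both cadherins, as it was for Tuba1a, and the set with the highest mitochondrial share. With mitochondrial genes left out of the total, Cdhr5 was still called higher in WT batch 2 than in WT June29, at a log2 fold of 1.41. The part of the mitochondrial share in the cadherin levels was not tested. Ush1c, which encodes their scaffold harmonin, had no read in the set labelled Aire-/-, where 3 reads would be 0.041 CPM. It had 8.85, 6.73 and 17.3 CPM in WT batch 2, WT June29 and WT June5, carried by 1.12%, 4.60% and 6.90% of cells. These levels rest on few cells, and the value for 3 reads covers counting error only. Other listed genes also had no read in the set labelled Aire-/-.

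Over all lists, the calls between WT sets were 3 higher and 3 lower of 92 genes for WT batch 2 against WT June29, 2 and 2 of 92 for WT batch 2 against WT June5 and 1 and 3 of 91 for WT June29 against WT June5. These shares, between 1.1% and 3.3%, lie near those of all genes. Tubb4b, a β-tubulin gene, was called higher in WT batch 2 (747 CPM) than in WT June29 (196 CPM), with 41.3% of its words in other genes. Slk, a kinase that phosphorylates ezrin and its relatives, Tpm4, a tropomyosin, and Clip1, a protein of growing microtubule ends, were called lower in that comparison, with log2 folds of -1.69, -1.19 and -1.51. Tubg1 was called higher and Map1a and Cryab lower in WT batch 2 than in WT June5. Myh9 was called higher and Cryab lower in WT June29 than in WT June5. None of the plastin, EPS8 or gelsolin lists had a call between WT sets. Slk and Tpm4 kept their call in 8 and 9 of 14 alternatives, and Cryab in 8 of 14 in the last comparison. Actb, the main cytoplasmic actin, was the highest per length on the lists, at a mean of 5382 TPM, and was not called in any comparison.

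For 2 wells of batch 2 labelled as 50 cells each, titles and descriptions disagree on which is which, and the titles were followed. Avil had 1242 CPM in the well labelled Aire-/- and 1517 CPM in the WT well, below every single-cell set, whose lowest was 2893 CPM. Tuba1a had 1840 and 2770 CPM, above every single-cell set, and Dclk1 had 890 and 1335 CPM. Tuft core genes summed to 27870 and 21971 CPM in these wells, against 26479 CPM in the single cells labelled Aire-/- and 23716 CPM in those of WT batch 2. The pools thus lay below their single cells in Avil in both groups, whereas the tuft core sum was higher in the Aire-/- pool and lower in the WT pool than in their single cells. With the labels of the pools swapped, that direction turns for the tuft core sum, at 21971 CPM in the Aire-/- pool and 27870 CPM in the WT pool, and stays for Avil. Pls1 had no read in the Aire-/- well, where 3 reads would be 5.56 CPM, and 111.03 CPM in the WT well, which the same doubt would turn round.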

How the data were processed

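Reads of single-cell wells, 1 no-cell well and 2 wells of 50 cells were deposited by the authors as raw counts per gene, in 1 table for WT and 1 for Aire-/- wells; 2 further no-cell wells of batch 2 were not analysed here. Tools and build come from the submitters' processing notes: STAR, Subread, featureCounts 1.5.3, R 3.4.0 and GRCm38. Whether strand was used and how reads that match several genes were treated is not given in the sources used here. A deposited table of scores per well was used only for its well names, in an alternative choice of cells. The authors' deposited table of wells was used for its Batch column, whose entries are called plates here. Gene IDs were paired with symbols for 48349 of 48795 entries.

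Kept cells had at least 10000 gene reads, 1000 genes and at most 20% mitochondrial reads. Reads were summed per set and given as CPM with exact Poisson intervals. Shares of cells have Clopper-Pearson intervals at 95%. TPM values use merged exons of GENCODE M21. For depth, cells were thinned to 231697 reads, which left 84, 79, 85 and 23 cells in the set labelled Aire-/-, WT batch 2, WT June29 and WT June5. The thinned values are used only as an alternative. Haematopoietic markers were read from lists of thymocyte, B cell and myeloid genes. No doublet caller was run, since each well received 1 sorted cell. The scripts were tested on simulated data. Python 3.11.15, numpy 2.4.6, pandas 2.3.3, scipy 1.17.1 and matplotlib 3.10.9 were used.

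Besides the members, the text names from each of 9 lists the genes past the size rule and, of the 3 highest per length, those it uses, and for Avil, Espn, Dclk1 and Tuba1a genes among the 3 most like each, not all of which are reported here. Eps8l2, Tuba1b, Ush1c, Tsfm and Gm42609 are named for what they show beside a member, after their values were seen. The members and lists were chosen with earlier results of these data known. Alternatives changed the scaling, the added CPM, the minimum level, the reads for a carried gene, the cells kept, the plate and the depth.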

Additional observations from a re-analysis of the deposited data

Results flagged for a closer look

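A batch 1 well that received no cell held 9892 gene reads, and 4 of the 8 genes had reads in it. Avil had 23 reads, Dclk1 11, Espn 5 and Tuba1a 5. Vil1, Ezr, Pls1 and Eps8 had none. The 4 genes read there are those that most cells carried, and each reaches the 5 reads at which a cell was taken to carry it. The shares of cells that carry these 4 are therefore not set apart from the background of this well by that threshold alone. The total is below the 10000 gene reads asked of a cell. The source of these reads was not tested, and there was 1 such well to read.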

How the results depend on the processing

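The count of members called was 0 in each of the 4 comparisons, and it became 1 under 6 alternatives, each time through Ezr. These were plate 2 alone for the set labelled Aire-/- against WT batch 2, the mean of per-cell CPM and the thinned cells for WT batch 2 against WT June5, and the same 2 settings and the wells of the authors' score table for WT June29 against WT June5. Plates and the mean of per-cell CPM weigh cells differently by construction; the cause of the other changes was not tested. Of 472 log2 folds of members under the alternatives, 18 had the other sign, among them those of Vil1 against WT June5 without its top cell. Scaling by the median of ratios moved the median log2 fold of all genes to 0.07 in place of -0.11 for WT June29 against WT June5, and the share of calls that were higher to 45.4% in place of 34.7%; for WT batch 2 against WT June29 the median moved to 0.01 in place of 0.16. The median of 5 members per cell was 4 or 5 in every set when cells were thinned or 20 reads were asked. Gm42609 passed the rule in 16 of 17 alternatives for genotype, and Pdlim1 in 16 of 17. No paired analysis was possible because each set is 1 pooled sample and well numbers do not tie cells across sets. Leaving out a replicate was not possible for the same reason. Few cells hold the reads of Vil1, Pls1 and Eps8, so their levels rest on those cells; thinning to one depth left Vil1 at 20.2% of cells labelled Aire-/- and at 25.3%, 23.5% and 26.1% in WT batch 2, WT June29 and WT June5.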
